A study of Arabidopsis thaliana with 12 samples.

Results

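XERICO (AT2G04240) was described through its single probe, number 664, which is the only 1 of 3439 probes that the platform annotation assigns to this gene, and which names no other gene. No probe assigned to several genes lists XERICO. It is 1 of 691 loci that a probe names alone. The gene was chosen because its transcript was lower in the toc160 mutant on these same arrays, so its genotype difference is described below with no test.

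The study hybridised 12 single-channel arrays with total RNA from Arabidopsis thaliana of the ecotype Wassilevskija. The 6 toc160 arrays carried RNA of the toc160 mutant, in which protein import at the outer chloroplast envelope is impaired, and the 6 WT arrays carried RNA of the wild type of the same ecotype. The labels give no allele, tissue, age, light or growth condition, and do not say whether replicates were separate plants. Arrays 1 and 2 of a genotype were nearly identical, as were 3 and 4, and 5 and 6, and means ± SD are therefore over 3 pair averages.

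XERICO encodes a small protein with a RING-H2 zinc finger, the domain with which many ubiquitin ligases recruit the enzyme that carries ubiquitin. In Arabidopsis, plants that overexpress it accumulate more abscisic acid, the hormone that closes stomata in drought and holds back germination, and they tolerate drought better. Its transcript is also known as a target of DELLA proteins, the growth repressors that gibberellin removes. The first steps of abscisic acid synthesis run in the plastid, from carotenoids, and the last ones in the cytosol.

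XERICO was less abundant on every toc160 array than on any WT array. The deposited intensity, a linear value in arbitrary units, was 3.20, 3.18, 2.93, 2.74, 1.97 and 1.95 on toc160 replicates 1 to 6. On WT replicates 1 to 6 it was 8.09, 7.67, 6.04, 5.997, 5.88 and 5.19. The groups did not overlap: the lowest WT array was 1.62 times the highest toc160 array. Among the 691 loci, 18 (2.60%) had all toc160 arrays below all WT arrays in this way as deposited. After quantile normalization 29 (4.20%) had, and 15 (2.17%) had under each of the 4 scalings given below. XERICO was 1 of the loci in all 3 counts, and nothing is read from these shares, since it was chosen from this contrast. Mean intensity was 2.66 ± 0.633 in toc160 and 6.48 ± 1.24 in WT (SD, n = 3 pair averages), a coefficient of variation of 23.8% and 19.1%. All of these values lie well inside the measured range, since the lowest of them was 53.5 times the floor of 0.0364 set for dim probes and the ceiling of the table is 100. Fewer cells expressing XERICO and less XERICO RNA per cell cannot be told apart in such bulk samples.

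**Figure D1:**
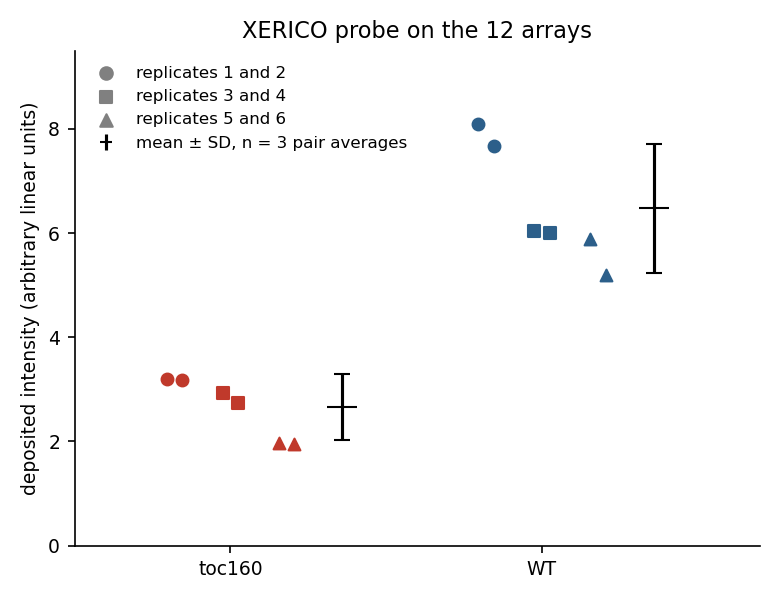
Deposited intensity of the XERICO probe (vertical axis, arbitrary linear units) on 6 toc160 and 6 WT arrays, with marker shapes for replicates 1 and 2, 3 and 4, and 5 and 6, and black bars for the mean ± SD over 3 pair averages. The toc160 arrays lie between 1.95 and 3.20 and the WT arrays between 5.19 and 8.09.

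The 3 pairs of replicates differed in XERICO level within each genotype, and replicates 1 and 2 were the highest in both. Averages of replicates 1 and 2 were 3.19 in toc160 and 7.88 in WT, so toc160 stood at 40.5% of WT. For replicates 3 and 4 they were 2.83 in toc160 and 6.02 in WT, or 47.1%. For replicates 5 and 6 they were 1.96 in toc160 and 5.54 in WT, or 35.4%. XERICO levels varied up to 1.65-fold among toc160 arrays and up to 1.56-fold among WT arrays, and the share of the WT level lay between 35.4% and 47.1% in the 3 pairs. The 2 arrays of a pair were closer to each other than the pairs were in most cases. They differed by 0.793%, 6.54% and 1.42% of their mean in toc160. In WT the corresponding gaps were 5.32%, 0.638% and 12.5%, and the last of these is larger than the step between the averages of replicates 3 and 4 and of replicates 5 and 6.

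On the log2 scale after quantile normalization, which gives every array the same distribution of values, XERICO averaged 1.43 ± 0.43 in toc160 and 2.59 ± 0.16 in WT (SD, n = 3 pair averages). The log2 difference, toc160 minus WT, was -1.16, which is 44.7% of the WT level. The log2 ratios within the pairs were -0.98, -0.98 and -1.52 for replicates 1 and 2, 3 and 4, and 5 and 6, with an SD of 0.31. Replicates 5 and 6 therefore showed the largest gap. In that pair toc160 lay 0.47 under its group mean and WT 0.11 under its own. The SD over pair averages was 0.37 in toc160 and 0.27 in WT as deposited, so the contrast between the genotypes' spreads was smaller without normalization. The SD of the pair ratios of XERICO was above the median over 631 loci, 0.17, and 542 of the 631 had a value as small or smaller. These are the loci that lay above the floor on all 12 arrays, XERICO included. The wider spread belonged to this scaling: with no normalization the SD of the XERICO pair ratios was 0.20 (median over the loci 0.18), cyclic loess gave 0.18 (median 0.17), and median centring gave 0.17 (median 0.17).

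The size of the difference depended on how the arrays were put on a common scale, and its direction did not. As deposited the log2 difference was -1.30, at 40.7% of WT, while the median over all loci was 0.33 higher in toc160. With cyclic loess it was -1.26, at 41.8% of WT. Centring each array on its median gave -1.62, at 32.5% of WT. Measured from the median of all loci, the difference was -1.19 after quantile normalization, -1.27 with cyclic loess and -1.63 both as deposited and with median centring. The pair ratios were -1.30, -1.09 and -1.50 as deposited and -1.70, -1.43 and -1.74 with median centring, so in all 4 scalings every pair lay below 0 and replicates 5 and 6 had the lowest ratio.

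**Figure D2:**
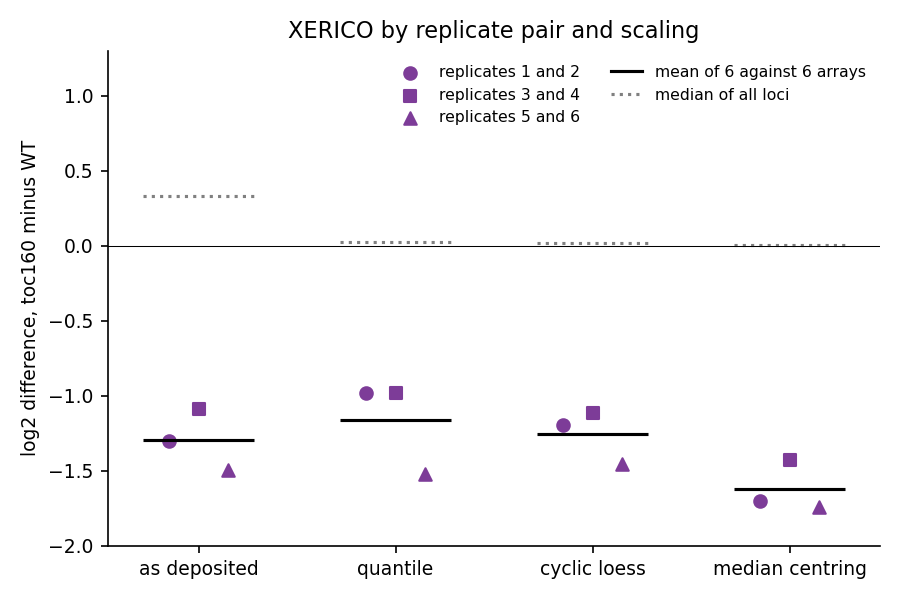
Log2 difference of XERICO, toc160 minus WT (vertical axis), in each of 3 replicate pairs (markers) under 4 scalings (horizontal axis), with black lines for the mean of 6 against 6 arrays and dotted lines for the median of all 691 loci. The pair values lie between -1.74 and -0.98.

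The rank of a probe within its own array does not change when that array is rescaled as a whole. By rank too, XERICO stood higher on every WT array than on any toc160 array. On toc160 arrays XERICO ranked 119th, 122nd, 143rd, 166th, 259th and 271st of 3439 probes by intensity, counted from the brightest. On WT arrays it ranked 50th, 53rd, 64th, 65th, 58th and 76th. Among the 691 loci its place was 21 to 49 on toc160 arrays and 10 to 12 on WT arrays. XERICO was therefore among the brighter probes in both genotypes, at 3.01 to 5.11 times the array median in toc160 and 9.43 to 17.0 times in WT. The array medians were themselves higher in toc160, at 0.627 to 0.646, against 0.477 to 0.551 in WT. The XERICO probe held 0.0517% to 0.0844% of the summed intensity of an array in toc160 and 0.141% to 0.222% in WT. Levels of different probes also depend on the probes themselves, so these ranks describe signal and not the number of transcripts.

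By log2 difference after quantile normalization, XERICO stood 6th from the most negative of the 631 loci above the floor, and 46th of 3150 probes. Its place among loci was 5th as deposited and with median centring, and 7th with cyclic loess. Within the pairs it was 11th of 637 loci in replicates 1 and 2, 11th of 638 in replicates 3 and 4, and the most negative of 646 in replicates 5 and 6, all after quantile normalization. In replicates 5 and 6 it was 3rd as deposited and with median centring, and 4th with cyclic loess. In the other pairs these scalings placed it 5th to 10th. Over all 12 arrays after quantile normalization, the loci just before XERICO, more negative, were AT1G62250 (4th) and AT4G32060 (5th), both at -1.24. Just after it, less negative, came CUTA, which encodes a chloroplast protein that binds copper, at -1.05, and AT4G05030 at -1.04. These gaps are smaller than the SD of the XERICO pair ratios, so the places of XERICO and these neighbours do not differ beyond that spread. For scale, limma with Benjamini-Hochberg adjustment at 0.05 called 72 of the 691 loci (10.4%), 38 of them (5.50%) lower in toc160. With near-duplicate arrays averaged and the pair as a block it called 12 (1.74%).

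**Figure D3:**
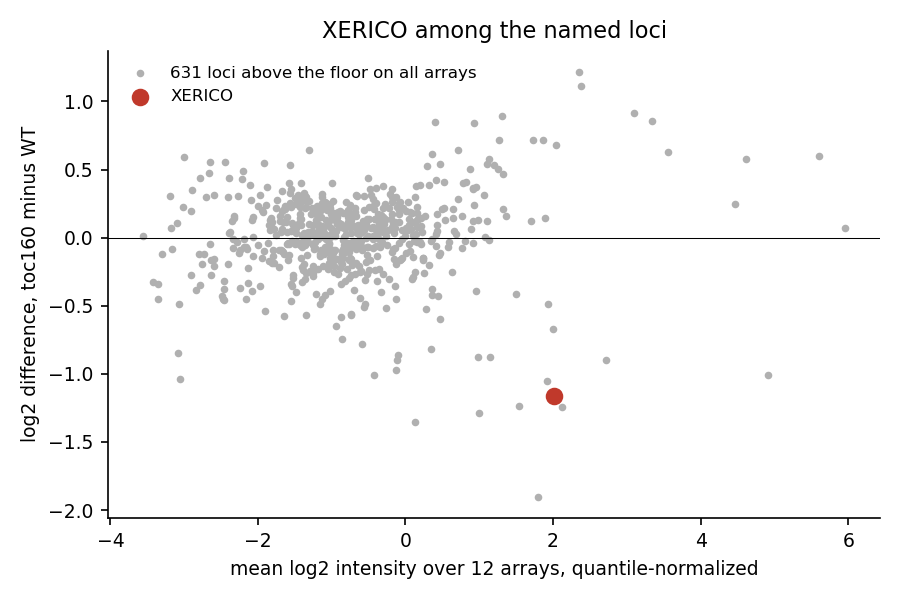
Log2 difference, toc160 minus WT (vertical axis), against mean log2 intensity over 12 arrays (horizontal axis), both quantile-normalized, for the 631 loci above the floor on all arrays, with XERICO in red at 2.01 and -1.16. XERICO lies among the brighter loci and 6th from the lowest difference.

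The loci next to XERICO in mean level behaved in several ways. XERICO was 14th of the 631 by mean normalized log2 intensity, at 2.01. AT1G62250, at 2.12, had intensities of 2.70 ± 0.204 in toc160 and 7.16 ± 0.537 in WT (SD, n = 3 pair averages), a difference close to that of XERICO with less spread between pairs. AT2G33180, at 2.04, went the other way, with 5.21 ± 2.24 in toc160 and 3.58 ± 1.48 in WT. AT4G39690, at 1.995, had 3.03 ± 0.491 in toc160 and 5.45 ± 0.692 in WT. AT3G13150, at 1.94, had 3.03 ± 0.233 in toc160 and 4.86 ± 0.966 in WT. A level near that of XERICO thus went with log2 differences from -1.24 to 0.68.

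The locus whose pattern over the 12 arrays was most like that of XERICO was AT5G52530, with a Pearson r of 0.98 between normalized log2 values. It is much dimmer, at 0.731 ± 0.113 in toc160 and 1.21 ± 0.111 in WT (SD, n = 3 pair averages). AT4G19900 and AT4G30740 (both 0.96), AT4G31530 and AT4G32060 (both 0.95) followed. AT4G31530 was far brighter, at 18.4 ± 5.05 in toc160 and 47.6 ± 8.81 in WT. The pattern most opposed to XERICO was that of AT4G18180 (r -0.96), followed by the cyanase CYN (-0.95), which detoxifies cyanate, and NdhS (-0.93), a subunit of the chloroplast NAD(P)H dehydrogenase. These correlations are descriptions over 12 arrays that include near-duplicates, and they contain the genotype difference from which XERICO was chosen. Of 630 other loci, 13 had an r over 0.9, as did 67 of 3149 other probes. Under each of the other 3 scalings, 4 of these 5 closest loci stayed among the closest 5.

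A second comparison left the genotype difference out by taking each array's deviation from its own group mean. XERICO deviated upward on replicates 1 and 2 of both genotypes and most strongly downward on toc160 replicates 5 and 6 and WT replicate 6. Its deviations in toc160 and in WT on same-numbered arrays had a Pearson r of 0.69 over 6 numbers, against a median of 0.76 over the 631 loci, so this joint variation of both genotypes was of a usual size for the series. The closest loci were PRA1.B3, a member of a family of membrane proteins linked to vesicle traffic (r 0.93), AT2G15440 (0.93), AT1G65500 (0.93), AT2G47360 (0.93) and AT1G80450 (0.91). Of 630 other loci, 5 had an r over 0.9 by deviation, as did 23 of 3149 other probes. The deviations include near-duplicate arrays, so these r are descriptions and were not tested. The most opposed loci were AT1G67930 (-0.97), AT5G06930 (-0.95) and AT1G50750 (-0.94). Of the loci most opposed over all arrays, AT4G18180 (-0.81) and CYN (-0.80) were opposed here too, and stayed so under the other scalings. For NdhS the sign turned with the scaling. Its r was -0.48 after quantile normalization, 0.40 as deposited, 0.61 with median centring and 0.05 with cyclic loess. The arrays share whatever made the replicate pairs differ, which the labels do not give.

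The 5 closest loci by deviation had none of the 5 closest loci over all arrays among them. After quantile normalization their log2 difference was -0.11 for PRA1.B3, -0.16 for AT2G15440, 0.02 for AT1G65500, 0.02 for AT2G47360 and -0.21 for AT1G80450. AT2G47360, at 1.73 ± 0.406 in toc160 and 1.57 ± 0.209 in WT (SD, n = 3 pair averages), was the brightest of them. The size of these differences was at most 0.21, against 1.16 for XERICO. Their signs depended on the scaling: as deposited all 5 were higher in toc160, by 0.10 to 0.40, where XERICO was at -1.30 and the median of all loci at 0.33. Which loci came first depended on the scaling, as 2 of the 5 stayed among the closest 5 as deposited, 1 with median centring and 2 with cyclic loess.

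**Figure D4:**
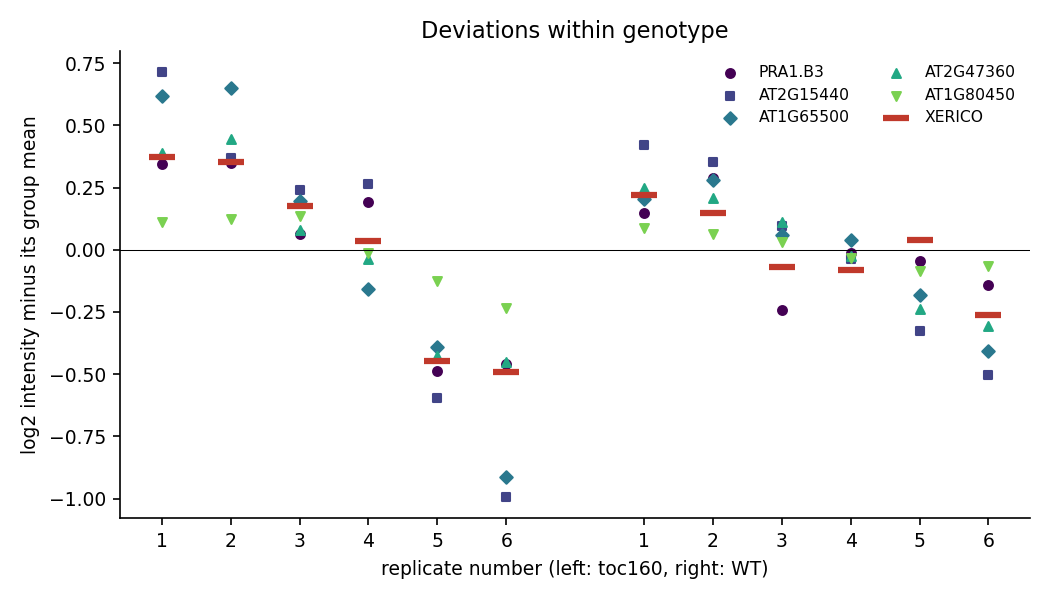
Deviation of normalized log2 intensity from the mean of its own genotype (vertical axis) on toc160 arrays (left) and WT arrays (right), by replicate number, for XERICO (red bars) and the 5 loci with the most similar deviations. All are above 0 on replicates 1 and 2 of both genotypes and below 0 on toc160 replicates 5 and 6.

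The probes numbered next to the XERICO probe were examined because neighbouring numbers may lie close on the array, which the sources used here do not state. Probe 665 was lower in toc160 as well, at 1.06 ± 0.125, against 1.98 ± 0.18 in WT (SD, n = 3 pair averages). Its 6 toc160 arrays lay between 0.917 and 1.20 and its 6 WT arrays between 1.80 and 2.19, with no overlap. The log2 difference of probe 665 was -1.06 after quantile normalization and -0.91 as deposited, and its r with XERICO was 0.97 over the 12 arrays and 0.81 over the deviations. It held 30.6% of the XERICO intensity in WT. In toc160 it stood at 49.6%, 63.3% and 47.8% of WT in the 3 pairs, where XERICO stood at 40.5%, 47.1% and 35.4%, so both had their highest share in replicates 3 and 4. Because probe 665 is assigned to 2 genes, it is given by number only.

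Probes 661 and 662, which name no gene, went the other way. Probe 661 had 1.21 ± 0.254 in toc160 and 0.871 ± 0.147 in WT (SD, n = 3 pair averages), which is a log2 difference of 0.23 after quantile normalization. Probe 662 had 1.38 ± 0.0775 in toc160 and 1.03 ± 0.215 in WT, with a log2 difference of 0.25. Probe 1872, which carries the same 2 gene names as probe 665 and was looked up only after the values of probe 665 were seen, was dim. It had 0.112 ± 0.0342 in toc160 and 0.146 ± 0.0662 in WT, and its arrays overlapped between genotypes, from 0.0709 to 0.159 in toc160 and from 0.0789 to 0.232 in WT. Its log2 difference was negative too, at -0.94 after quantile normalization, -0.63 with median centring, -0.64 with cyclic loess and -0.31 as deposited. Its r over the 12 arrays was 0.69 with probe 665 and 0.64 with XERICO, and over the deviations it was -0.35 with XERICO. Whether signal passed between probes 664 and 665, in either direction, was not tested.

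**Figure D5:**
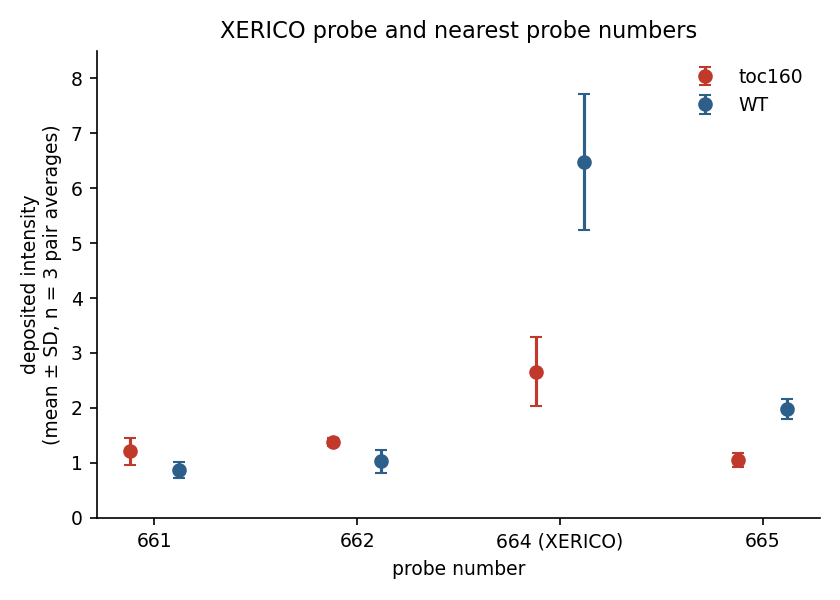
Deposited intensity (vertical axis, arbitrary linear units, mean ± SD over 3 pair averages) of the XERICO probe and the 3 other probes numbered within 3 of it, in toc160 (red) and WT (blue). Probes 664 and 665 are lower in toc160, and probes 661 and 662 are higher.

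Along the genome, the nearest locus measured alone was taken on each side of XERICO. These were AT2G03390, with 150 annotated genes between it and XERICO in TAIR10.1, and AT2G04360, with 14 genes between. By locus number, other measured loci beyond AT2G04360, such as AT2G04540, lie nearer to XERICO than AT2G03390 does. AT2G03390 had a log2 difference of -0.16 and AT2G04360 one of -0.23, both smaller in size than that of XERICO. As deposited both were higher in toc160, by 0.12 and 0.13, so their sign turned with the scaling. Coordinates are left out, since the sources name no build for these arrays.

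The surrounding pathway could not be followed with the probes that the platform annotation assigns to 1 gene. Lists of 136 genes held abscisic acid synthesis, turnover, transport, receptors, phosphatases, kinases, transcription factors and responses. They also held gibberellin and DELLA genes, the XERICO partners UBC8 and TLP9, and 27 RING ubiquitin ligases. The RING family was not searched by sequence, so RING proteins outside the list may have probes of their own. None of the 136 (0 measured alone) had a probe assigned to it alone, and 2 were present only on probes shared between genes. Since 1877 of the 3439 probes name no gene, this does not show that the listed genes are absent from the arrays. The same held for 30 markers of seed, guard cell, phloem, root and leaf mesophyll, of which 0 were measured alone and 1 was on shared probes. These markers could therefore not be used to check the tissue or its cell types. Photosynthesis genes outside the lists did have probes of their own and were not used for this. Among them, LHB1B2, of the LHCB1 family that the mesophyll list draws on, had a log2 difference of -1.90 after quantile normalization. PSBW went the other way, at 0.58.

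After the probe names were seen, 3 measured loci with a link to drought, salt or the carotenoid precursors of abscisic acid were added, and 0 of the 3 passed after quantile normalization, where 10.4% of all loci did. A share of 0 of 3 cannot be told from that background. DI21, named for its induction by drought, had 0.540 ± 0.111 in toc160 and 0.392 ± 0.0179 in WT (SD, n = 3 pair averages), and a log2 difference of 0.09 (limma adjusted p 0.803). SIS, named for its induction by salt, had 0.344 ± 0.0432 in toc160 and 0.279 ± 0.0319 in WT, with a log2 difference of -0.09 (limma adjusted p 0.823). Z-ISO, a carotenoid isomerase of the plastid, had 1.02 ± 0.111 in toc160 and 0.756 ± 0.246 in WT, with a log2 difference of 0.22 (limma adjusted p 0.458). Without normalization, which leaves the general shift of 0.33 in place, the log2 differences of DI21, SIS and Z-ISO were 0.45, 0.30 and 0.47, and DI21 passed (limma adjusted p 0.0103), but 292 of the 691 loci (42.3%) passed there too. Over the deviations, the r with XERICO was 0.46 for DI21, 0.29 for SIS and -0.49 for Z-ISO.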

How the data were processed

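Per the labels, 12 arrays measured total RNA, 6 of toc160 and 6 of WT. The authors deposited a linear intensity, from 0 to 100, for each probe on each array. The scanning, background correction and scaling behind it are not given in the sources used here, and precision is limited by the number of arrays.

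Of 3439 probes, the platform annotation named 1 gene for 692, several for 870 and none for 1877. Of the 691 loci, 690 matched the TAIR10.1 gene table by identifier, and 1 locus with a pair of probes took their average. Before taking log2, a floor was set at the 1st percentile of positive intensities (0.0364), and all probes were then quantile normalized. The fit across loci used limma 3.58.1 in R 4.3.3 (lmFit, eBayes, two-sided, Benjamini-Hochberg, threshold 0.05), 6 arrays against 6. The code was run on simulated independent arrays with a common SD, which cannot check the fit for near-duplicate arrays. The p-values of the fit treat nearly identical arrays as independent. They measure only the spread between these samples, which may be technical. Alternatives changed the scaling, the floor (a pseudocount of 0.1), the filter, the replicates and the block.

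Same-numbered arrays of both genotypes deviated together (r 0.518 to 0.722 over all probes in 6 of 6 numbers), so the numbers pair the samples by the data, not the labels. Spearman's rho was 0.983 to 0.990 within a replicate pair and 0.871 to 0.945 between other arrays of the same genotype.

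The gene and the lists were chosen with earlier results of these data known. Named loci follow a rule: the 5 most and 3 least like XERICO over arrays and over deviations, the 2 on each side of it by level and by difference, and probes within 3 numbers of it. Probe 1872, the genome neighbours and the 3 added genes fall outside it. A planned family of RING proteins by sequence was not formed, as no protein sequences were used here.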

Additional observations from a re-analysis of the deposited data

Results flagged for a closer look

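Of 34 groups of 6 arrays checked for XERICO and the loci most or least like it, 1 held a value apart from the rest. By chance about 5% of groups of independent normal values would, a rate that need not hold for near-duplicate arrays. The locus was AT4G31530, for which WT replicate 3 had a normalized log2 intensity of 5.62, while the nearest WT array was at 5.38, a gap of 1 times the range of the group. Quantile normalization assigns equal values to equal ranks, and the other 5 WT arrays share 1 value. No XERICO array stood apart in this way in either genotype.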

How the results depend on the processing

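The log2 difference of XERICO kept its sign under all alternatives run. It was -1.62 with median centring, a move larger than the SD between its pair ratios, and moved by less under the other alternatives, among them the fit with replicate number as a block, where it was -1.16. Leaving out 1 array gave -1.23 to -1.07, and leaving out replicates 5 and 6 in both genotypes gave -0.98. Of the 5 loci closest to XERICO by deviation, 2 stayed among the closest 5 as deposited, 1 with median centring and 2 with cyclic loess; the cause was not tested.

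The number of the 691 loci that limma called was 72. It was 292 as deposited, 196 with replicate number as a block, 3 with near-duplicate arrays averaged and no block, and 12 with the pair as a block on these averages. Leaving out 1 array gave 57 to 71 calls. Higher calls made up 47.2% of the 72, 91.1% as deposited and 23.6% with median centring. After quantile normalization, the fits blocked by replicate number and by pair passed 0 of the 3 added genes, as did the fit without a block (limma adjusted p 0.101 to 0.765 in the blocked fits). As deposited 1 of them passed, DI21. In fits of the deposited values chosen after seeing the data, 3 passed with replicate number as a block (limma adjusted p 0.00677 to 0.0136). With the pair as a block on averages, 1 passed in such a fit, SIS (limma adjusted p 0.0442). The cause of these changes was not tested. The share of all loci that passed in these blocked fits was not counted, so nothing is read from the counts. Without a block, 42.3% of all loci passed as deposited. No alternative could be run for the pathway lists, which had no member measured alone by the annotation.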
